A study of Mus musculus with 15 samples.

Results

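Homeobox, Pax and T-box genes were followed in mouse ovaries that carried both copies, a single copy or no copy of *Foxl2*, the gene of a forkhead transcription factor of the ovarian granulosa lineage. The members were all genes on the array whose current symbol begins with Hox (clusters a to d), Lhx, Irx, Dlx, Msx, Pitx, Meis, Pbx, Nkx, Emx, Pax or Tbx, or belongs to the sine oculis-related family, with 1 gene of the Irx pattern left out by the rule. There were 78 such genes among the 12254 that could be named, read by 88 of the 41006 probes, and a gene with more than 1 probe (10 members) was given by its brightest. The rule used gene names and brightness only, not the differences between groups. By family there were 24 Hox, 8 Nkx, 8 Pax, 8 Tbx, 7 Lhx, 6 Meis and Pbx, 4 sine oculis-related genes, 3 Dlx, 3 Irx, 3 Msx and 3 Pitx genes, and Emx2.

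The arrays compared whole ovaries of *Foxl2*+/+, *Foxl2*+/- and *Foxl2*-/- (null) females at birth, with 3 arrays per genotype, and at 7 days postnatum (7 dpn), with 2 per genotype. The labels give the strain as NIHS-BC, and the methods a mixed background that every group shared. The null allele was present in all cells, so no promoter or Cre limits the loss to a cell type. Each 7 dpn array carried RNA pooled from several mice. A value is the log2 ratio of ovary RNA (Cy3) over a universal mouse reference RNA (Cy5), a pool of cell lines, so that 0 is the level of the reference and values of different genes cannot be ranked against each other. The methods describe samples as coming from individual mice, apart from these pools, while the labels do not say which animals gave the newborn arrays.

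Homeodomain, paired-domain and T-box proteins bind DNA in a sequence-specific way and set regional and cell identity in the embryo. Hox genes lie in clusters and are switched on in the order of their place in the cluster along the body axis. Meis and Pbx proteins bind DNA together with Hox proteins and alter their choice of sites. In the urogenital system, *Emx2* and *Lhx9* act in the gonadal ridge, *Pax2* and *Pax8* in the mesonephric and Mullerian ducts, *Hoxa9*, *Hoxa10*, *Hoxa11* and *Hoxa13* in the regions of the female tract, and *Lhx8* in oocytes.

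The letters upstream of 4 of the members whose levels differed between groups are shown so that the changes can be set beside the DNA. They were taken from members for which the reference table held a window, and no window was at hand for *Tbx2*, *Pax3*, *Irx5* or *Hoxc6*. They are the 250 bases before the annotated start, 5′ to 3′ on the gene's strand, from the RefSeq annotation of GRCm38.p6, and capitals mark a match to a motif.
Pax8 (chr2:24475600-24475849, minus strand): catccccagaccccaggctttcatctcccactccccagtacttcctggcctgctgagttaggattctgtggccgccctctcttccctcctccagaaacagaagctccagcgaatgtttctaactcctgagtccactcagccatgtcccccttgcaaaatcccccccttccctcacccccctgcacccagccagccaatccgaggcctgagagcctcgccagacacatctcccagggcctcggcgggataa
Hoxa2 (chr6:52164832-52165081, minus strand): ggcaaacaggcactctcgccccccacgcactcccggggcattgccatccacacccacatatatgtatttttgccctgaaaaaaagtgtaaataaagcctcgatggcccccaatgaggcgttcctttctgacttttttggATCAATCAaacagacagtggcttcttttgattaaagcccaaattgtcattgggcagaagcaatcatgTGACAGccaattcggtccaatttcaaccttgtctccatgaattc
Meis1 (chr11:19018970-19019219, minus strand): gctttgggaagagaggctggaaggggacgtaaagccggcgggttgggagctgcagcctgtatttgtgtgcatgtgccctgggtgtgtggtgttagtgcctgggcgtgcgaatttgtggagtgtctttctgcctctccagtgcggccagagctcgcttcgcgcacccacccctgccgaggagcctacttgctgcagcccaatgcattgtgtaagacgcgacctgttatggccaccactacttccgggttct
Hoxd4 (chr2:74721728-74721977, plus strand): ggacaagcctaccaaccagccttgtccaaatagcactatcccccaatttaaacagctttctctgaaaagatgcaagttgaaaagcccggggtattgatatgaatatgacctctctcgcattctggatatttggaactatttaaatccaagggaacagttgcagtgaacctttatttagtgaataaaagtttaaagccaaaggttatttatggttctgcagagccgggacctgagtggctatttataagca

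Motifs were searched on both strands, and matches could overlap. They were TGTTTAC (forkhead), GTCAAGG (reported for FOXL2), TAATTA (homeodomain), TGATNNAT (PBX with HOX) and TGACAG (MEIS). Upstream windows were at hand for 57 of the 78 members (68 windows). The forkhead letters occurred in 0 of these, where 3.17% of all 32851 windows held them, and GTCAAGG in 2 (2.94%, against 2.75%). TAATTA occurred in 3 member windows (4.41%, against 4.84%), TGATNNAT in 4 (5.88%, against 7.68%) and TGACAG in 9 (13.2%, against 15.9%). Of the sequences printed, the *Hoxa2* window held 1 PBX-HOX match, read on the opposite strand, and 1 MEIS match, and the other windows printed held none. The median G+C content was 60.6% over the member windows and 52.4% over all windows.

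In the ovary channel, 73 members were well above background on all 15 arrays. *Hoxd3* was on 14 and *Hoxd10* on 3, while *Hoxa11*, *Hoxc12* and *Nkx2-9* were well above background on no array, so that no fold is given for these 3. No member was saturated. The median SD of a member over all 15 arrays was 0.144 log2 units, against 0.142 for all probes tested, and 27 members (34.6%, against 32% of probes) had an SD under 0.1. Between 93.2 and 96.5% of probes were well above background on an array, and arrays of a group correlated across probes with r from 0.894 to 0.964. The *Foxl2* probe passed the test in no comparison (means from -0.32 to -0.25 over the 6 groups), and its 7 dpn null arrays, at -0.27 and -0.23, lay above the wild-type arrays, at -0.35 and -0.28 (difference 0.07 ± 0.05, adjusted p = 0.608), so it gave no check of the labels. Of the marker lists, 7 of 11 granulosa genes, 3 of 5 theca and steroid genes and 2 of 6 stromal genes were lower in the 7 dpn null than in the wild type (limma, adjusted p under 0.05), beside 2.8% of all probes. By the same test 2 of 12 oocyte genes were lower and 1 higher, and 1 of 5 Sertoli genes was higher (*Sox9*, 1.69). In whole ovaries, fewer cells of a type and less RNA per cell cannot be told apart.

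**Figure D1:**
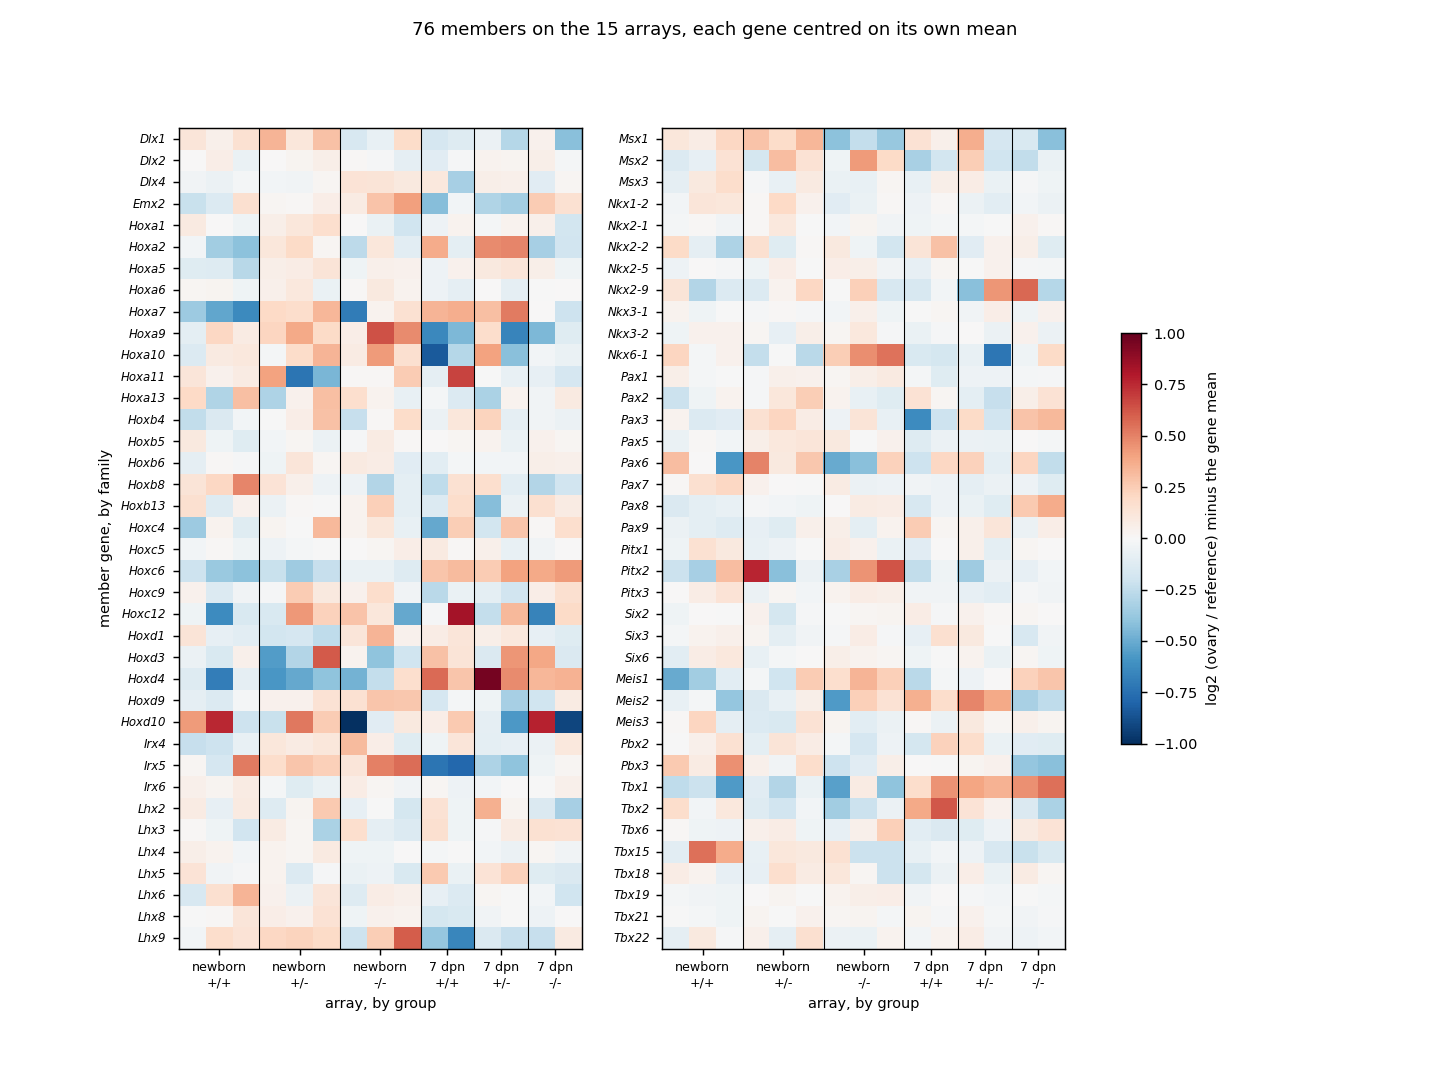
Heat map of the log2 ovary over reference ratio of 76 members (rows, by family) on the 15 arrays (columns, by age and genotype), each gene centred on its own mean and coloured from -1 (blue) to 1 (red). Most rows are pale, and *Hoxc6*, *Hoxd4* and *Tbx1* are redder in the 7 dpn columns than in the newborn columns.

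The first question was which members differed between null and wild-type ovaries at 7 dpn, when follicles have formed in the wild type. In this comparison 3 members rose in the null ovary (*Pax8*, *Pax3* and *Irx5*) and 1 fell (*Tbx2*). These are 5.13% of the members, beside 5.52% of all 40990 probes (2.73% higher and 2.8% lower), so the share called was near the background. With 1 array left out the count ran from 1 (without 7 dpn null replicate 2) to 6 (without newborn null replicate 1). The median log2 difference over the members was 0.01, as over all probes. The arrays of the genotypes did not overlap for 35 members, beside 47.1% of probes.

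*Pax8*, a paired-domain factor of the thyroid, kidney and Mullerian duct, had log2 ratios of 0.40 and 0.51 on the 7 dpn null arrays. The heterozygous arrays read 0.07 and 0.02, and the wild-type arrays -0.02 and 0.09. The null arrays stood above all 4 others, and the heterozygous and wild-type arrays overlapped. The null minus wild-type difference was 0.42 ± 0.06 (SE, adjusted p = 0.0019, limma) and the null minus heterozygous difference 0.41 ± 0.06 (adjusted p = 0.00415), the latter lost without null replicate 2 (0.35, adjusted p = 0.0596), with the ovary channel alone (0.29, 0.996) and in a fit of the 7 dpn arrays alone (0.115). A second, dimmer probe of *Pax8* gave 0.26 ± 0.15 for null against wild type and 0.19 ± 0.15 for null against heterozygote, neither called (adjusted p = 0.472 and 0.79). Using the ovary channel alone, the difference at the first probe was 0.26 (adjusted p = 0.587), and in a fit of the 7 dpn arrays alone it was 0.42 (adjusted p = 0.0647). Beside *Pax8*, of the 7 measured markers of oviduct, rete and mesonephric epithelium, *Epcam* (1.12) and *Krt18* (0.94) were higher and *Cdh1* (-0.69) lower in the 7 dpn null, and the list mean ranged from -1.07 to -0.93 in the null and from -1.49 to -1.24 in the wild type. Their part in the *Pax8* result was not tested.

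*Pax3*, a paired-domain factor of neural crest and muscle precursors, read -0.87 and -0.83 on the 7 dpn null arrays. In the heterozygous ovaries the values were -0.97 and -1.35, and in the wild type -1.78 and -1.36. The null arrays were highest, and wild-type replicate 1 stood well below replicate 2. The null exceeded the wild type by 0.72 ± 0.15 (adjusted p = 0.0155). The call was lost without null replicate 1 (adjusted p = 0.0783), null replicate 2 (0.11) or wild-type replicate 1 (0.0948), where the difference fell to 0.51, and with median centring (0.53, adjusted p = 0.0754) or normexp correction (0.23, adjusted p = 0.0519). It was also lost with the series values (0.32, adjusted p = 0.185) and in a fit of the 7 dpn arrays alone (0.72, adjusted p = 0.14). Of 4 measured smooth and skeletal muscle markers, none passed the test in this comparison.

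*Irx5*, an Iroquois homeobox gene, read 1.79 and 1.85 in the 7 dpn null, 1.53 and 1.43 in the heterozygote, and 1.10 and 1.05 in the wild type. The 3 genotypes did not overlap, with the heterozygote between the others. The null was 0.75 ± 0.19 above the wild type (adjusted p = 0.0442). This call lay close to the threshold and was lost in 11 of the 15 fits that left out 1 array, with adjusted p from 0.0523 to 0.223. These were the fits without any 1 of the 6 arrays of 7 dpn, any 1 newborn heterozygous array, or newborn null replicate 2 or 3. The heterozygote minus wild-type difference of 0.40 ± 0.19 was not called (adjusted p = 0.594).

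*Tbx2*, a T-box repressor, was the member that fell. Its 7 dpn values were 0.73 and 0.98 in the wild type, 0.49 and 0.39 in the heterozygote, and 0.21 and 0.04 in the null. Again the genotypes did not overlap and the heterozygote was in between. The null lay 0.73 below the wild type (log2 difference -0.73 ± 0.11, adjusted p = 0.00424), and the call was lost only without null replicate 2 (-0.64, adjusted p = 0.0529). For heterozygote against wild type the difference was -0.41 ± 0.11, which did not pass (adjusted p = 0.268). The granulosa list moved in the same samples, its mean running from 0.85 to 0.89 on the null arrays and from 2.15 to 2.35 on the wild-type arrays. The theca and steroid mean (-0.11 to 0.19 against 1.535 to 2.13) and the stromal mean (1.566 to 1.573 against 2.03 to 2.133) were also lower in the null. So were the oocyte and endothelium means, while the Sertoli, muscle, oviduct and surface mesothelium means were higher. The part of these lists in the *Tbx2* result was not tested.

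**Figure D2:**
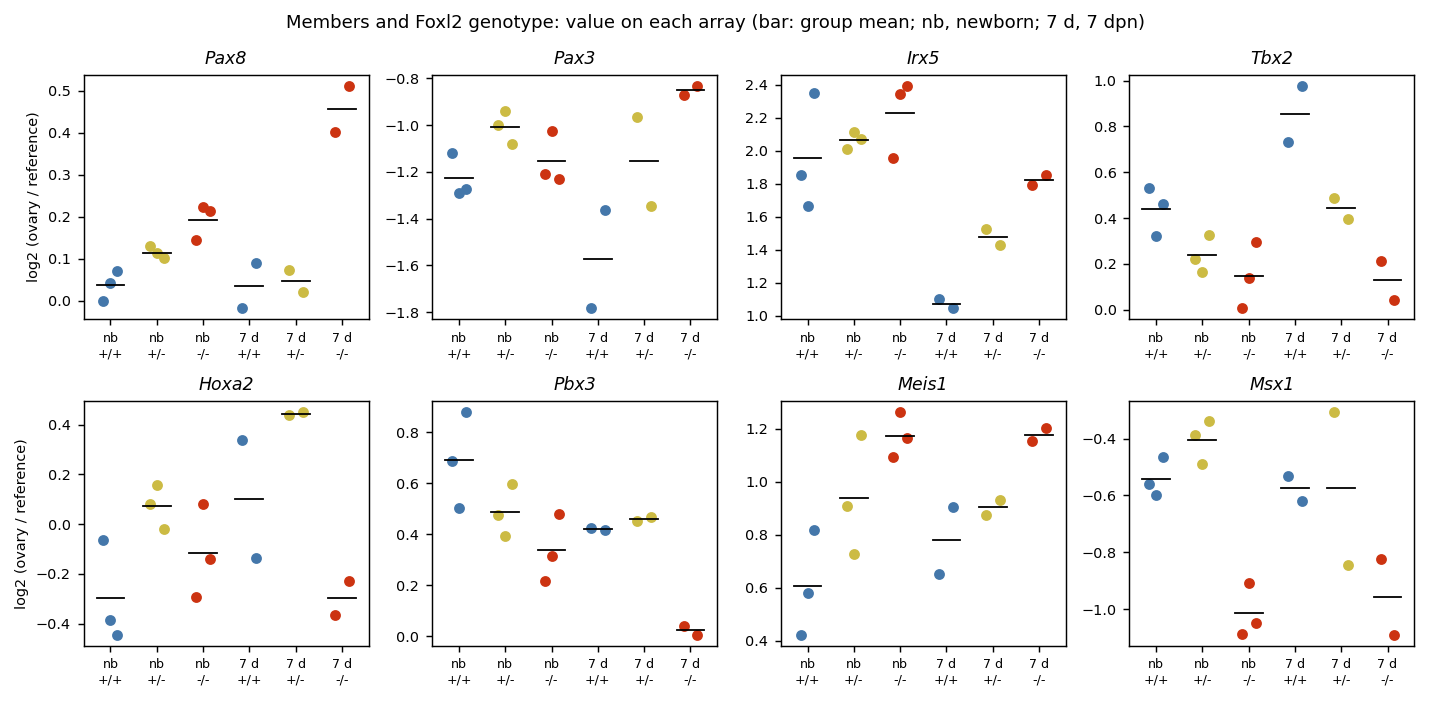
Log2 ratio of ovary over reference on each array (points) with group means (bars) for 8 members, by age and *Foxl2* genotype (blue, wild type; yellow, heterozygote; red, null); vertical axes differ between panels. The 7 dpn null arrays are the highest of that age for *Pax8*, *Pax3*, *Irx5* and *Meis1* and the lowest for *Tbx2*, *Pbx3* and *Hoxa2*.

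Between null and heterozygote at 7 dpn, 2 members were called (2.56%, beside 2.19% of probes), *Pax8* as above and *Hoxa2*. *Hoxa2*, a Hox gene of the hindbrain and branchial arches, whose upstream letters are printed above, read -0.37 and -0.23 in the null and 0.44 and 0.45 in the heterozygote. The wild-type arrays read 0.34 and -0.14 and lay between these groups. The null was 0.74 below the heterozygote (-0.74 ± 0.17, adjusted p = 0.0484). That call too lay at the threshold, was lost in 11 of the 15 fits that left out 1 array, any of the 4 arrays compared among them (adjusted p from 0.178 to 0.265), and did not pass under normexp background correction, where the difference was -0.28 (adjusted p = 0.0678). It was also lost with median centring (adjusted p = 0.0658), a span of 0.3 (0.0565), a local mean (0.0584), the ovary channel alone (-0.55, 0.556), the series values (-0.36, 0.229), the replicate block (0.083) and the 7 dpn arrays alone (0.163). The other fits that lost it left out any 1 newborn heterozygous array, newborn null replicate 1 or 3, or newborn wild-type replicate 2 or 3.

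Between heterozygote and wild type at 7 dpn, limma called 0 members, beside 0.061% of probes, and 6 members had an unadjusted p under 0.05. The 3 lowest p-values belonged to *Tbx2* (above), *Pax3* (0.42 ± 0.15, adjusted p = 0.402) and *Lhx8* (0.14 ± 0.06, adjusted p = 0.527). The *Lhx8* difference had the opposite sign, -0.04, with the ovary channel alone.

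*Pbx3*, a partner of Hox proteins, did not pass the test but had its 7 dpn null arrays apart from the others. It read 0.04 and 0.01 in the null, 0.45 and 0.47 in the heterozygote, and 0.42 and 0.42 in the wild type. The heterozygous and wild-type values lay close together and both null values lay well below them. The difference from wild type was -0.40 ± 0.11 (adjusted p = 0.0748), and that from the heterozygote -0.44 ± 0.11 (adjusted p = 0.0938). The first passed with normexp correction (-0.35, adjusted p = 0.0489), with the 7 dpn arrays alone (0.0406), and without newborn wild-type replicate 2 (0.0443) or 3 (0.0386), and the second without newborn wild-type replicate 3 (0.0468). Both passed with the replicate number as a block (0.0146 and 0.0179). In newborns the null arrays read 0.22, 0.31 and 0.48 and the wild type 0.69, 0.50 and 0.88, a difference of -0.35 ± 0.09 (adjusted p = 0.111).

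In newborns, 1 member differed between null and wild type (1.28%, beside 1.62% of probes, 1% higher), and it rose. The arrays of the genotypes did not overlap for 14 members, beside 15.8% of probes. *Meis1*, a partner of Hox and Pbx proteins, read 1.09, 1.26 and 1.17 in the null, and 0.42, 0.58 and 0.82 in the wild type. In the heterozygote it read 0.91, 0.73 and 1.18, overlapping both. The null exceeded the wild type by 0.57 ± 0.12 (adjusted p = 0.0467). The call was lost in 10 of the 15 fits that left out 1 array (adjusted p from 0.0542 to 0.186), namely without any 1 newborn null array, newborn wild-type replicate 1 or 2, newborn heterozygous replicate 1, or any 1 null or heterozygous array of 7 dpn. In a fit of the newborn arrays alone the adjusted p was 0.129, and with the ovary channel alone 0.113. At 7 dpn, *Meis1* read 1.15 and 1.20 in the null and 0.65 and 0.91 in the wild type, a difference of 0.40 ± 0.15 (adjusted p = 0.181).

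*Msx1*, a homeobox target of BMP signalling, stood closest to the threshold among the other newborn members. It read -1.09, -0.91 and -1.05 in the null, -0.39, -0.49 and -0.34 in the heterozygote, and -0.56, -0.60 and -0.46 in the wild type. All 3 null arrays were below the other 6. The null minus wild-type difference was -0.47 ± 0.12 (adjusted p = 0.0939) and the null minus heterozygous difference -0.61 ± 0.12 (adjusted p = 0.0725). Neither passed. The second passed with normexp correction (-0.48, adjusted p = 0.0384), and both passed in a fit of the newborn arrays alone (adjusted p = 0.0239 and 0.0302) and when either 7 dpn heterozygous array was left out (0.0196 and 0.0187). At 7 dpn the null arrays read -0.82 and -1.09, below the wild-type arrays at -0.53 and -0.62 (-0.38 ± 0.15, adjusted p = 0.194), and the heterozygous arrays, at -0.31 and -0.84, were far apart.

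For null against heterozygote in newborns, limma called 0 members (beside 0.383% of probes), with 7 at an unadjusted p under 0.05. After *Msx1* the lowest p-values were those of *Hoxd1* (0.37 ± 0.08, adjusted p = 0.1) and *Nkx6-1* (0.59 ± 0.15, adjusted p = 0.172, but 0.09 ± 0.05 at its second probe), and *Hoxd1* changed sign with the ovary channel alone (-0.07). For heterozygote against wild type limma also called 0 (beside 0.0244% of probes), with 9 at an unadjusted p under 0.05. There the lowest p-values were those of *Hoxa5* (0.26 ± 0.05, adjusted p = 0.117), *Hoxa7* (0.74 ± 0.18, adjusted p = 0.155) and *Pax5*. Of the 15 fits that left out 1 array, *Hoxa5* passed in 1 and *Hoxa7* in 2.

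Of the 22 Hox genes well above background on at least 1 array, 17 (77.3%) had a newborn null minus wild-type difference above 0, as had 53.5% of all probes. Their median was 0.12, against 0.01 over all probes, and none was called. Between the newborn null and heterozygote 11 lay above 0 and 11 below, with a median of 0.00, and between heterozygote and wild type 13 lay above and 9 below, with a median of 0.06. At 7 dpn 12 were above 0 and 10 below, with a median of 0.02. By cluster, the newborn median was 0.19 over 8 *Hoxa* genes, 0.05 over 5 *Hoxb*, 0.14 over 4 *Hoxc* and 0.12 over 5 *Hoxd* genes. Of the 6 Meis and Pbx genes, 4 lay below 0 and 2 above in the 7 dpn null against wild type, and none was called. Their median was -0.22, against 0.01 over all probes, of which 53.3% lay above 0.

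The genes of the gonadal ridge and ducts were examined whatever they did. *Emx2*, needed for the urogenital ridge, read 2.88 and 2.78 in the 7 dpn null, 2.32 and 2.29 in the heterozygote, and 2.20 and 2.60 in the wild type. Its null arrays were the highest of that age, but the differences of 0.43 ± 0.15 from wild type (adjusted p = 0.14) and 0.52 ± 0.15 from the heterozygote (adjusted p = 0.125) did not pass. *Lhx9*, a LIM homeobox gene of the gonadal ridge, read 0.90 and 1.22 in the 7 dpn null against 0.75 and 0.48 in the wild type (0.45 ± 0.21, adjusted p = 0.302).

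*Lhx2*, a LIM homeobox gene of many progenitors, had a 7 dpn difference of -0.29 ± 0.14 (adjusted p = 0.344). *Msx2* and *Pax2* differed by 0.10 ± 0.20 and 0.02 ± 0.10 at 7 dpn, neither called. Among the posterior *Hoxa* genes, which pattern the female tract, *Hoxa10* differed by 0.51 ± 0.25 (adjusted p = 0.328), *Hoxa9* by 0.26 ± 0.25 and *Hoxa13* by 0.10 ± 0.22 at 7 dpn. *Lhx1* had no named probe here.

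**Figure D3:**
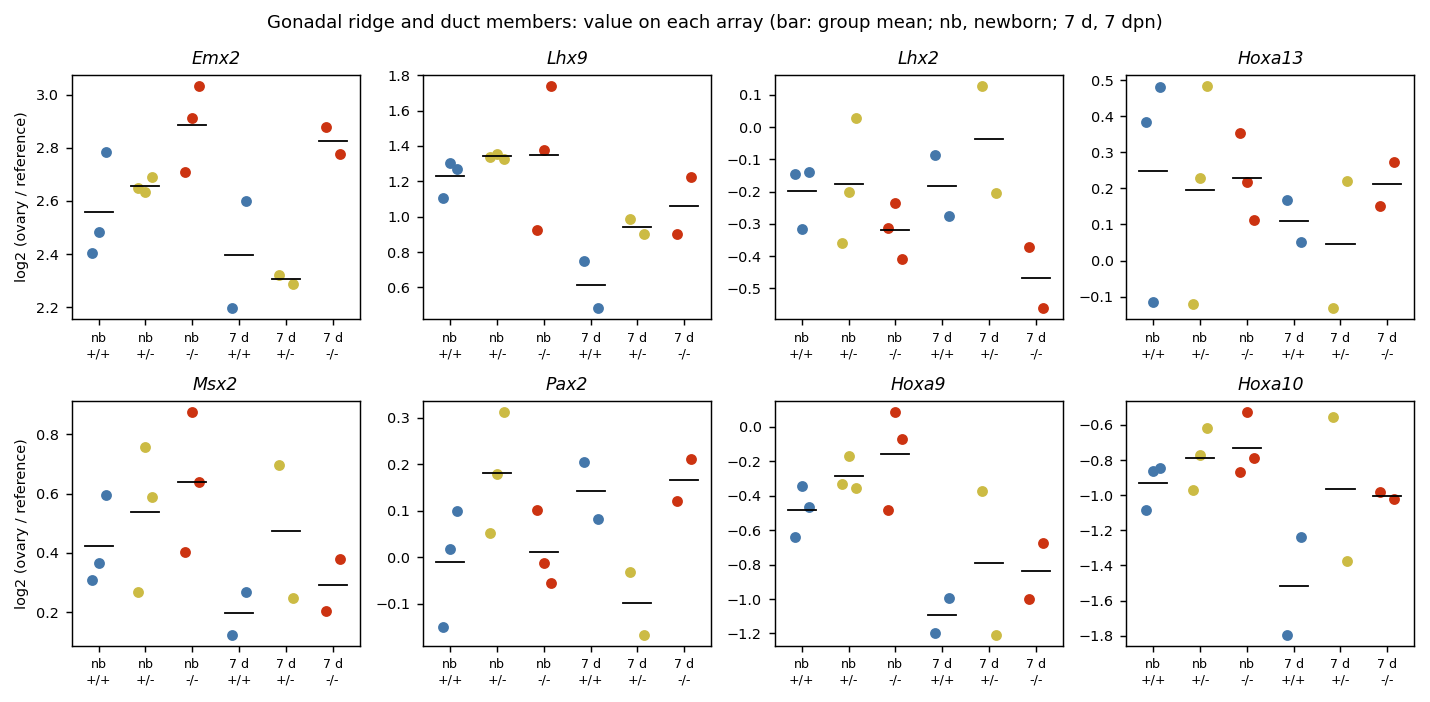
Log2 ratio of ovary over reference on each array (points) with group means (bars) for 8 genes of the gonadal ridge, ducts and female tract, by age and genotype (blue, wild type; yellow, heterozygote; red, null); vertical axes differ between panels. None of the 8 differed between null and wild type at either age by the test, and *Emx2* has its 7 dpn null arrays, at 2.88 and 2.78, above the other arrays of that age.

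Whether the null effect differed between ages was tested as an interaction, from arrays that the 2 ages do not share. limma called 0 members (beside 0.185% of probes), with 8 at an unadjusted p under 0.05. The lowest p-values were those of *Pax8*, whose null effect was 0.26 ± 0.07 larger at 7 dpn (adjusted p = 0.205), *Pax3* (0.65 ± 0.19, adjusted p = 0.217) and *Hoxd1*. *Pax8* read 0.14, 0.22 and 0.21 in the newborn null and 0.00, 0.04 and 0.07 in the wild type, which did not overlap, with a difference of 0.16 ± 0.05 (adjusted p = 0.166), while its second probe had the opposite sign (-0.07 ± 0.12). *Tbx2* in newborns was -0.29 ± 0.09 (adjusted p = 0.191), with null arrays at 0.01, 0.14 and 0.30 and wild-type arrays at 0.53, 0.32 and 0.46. A call at 1 age and not at the other was therefore not shown to differ between the ages.

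**Figure D4:**
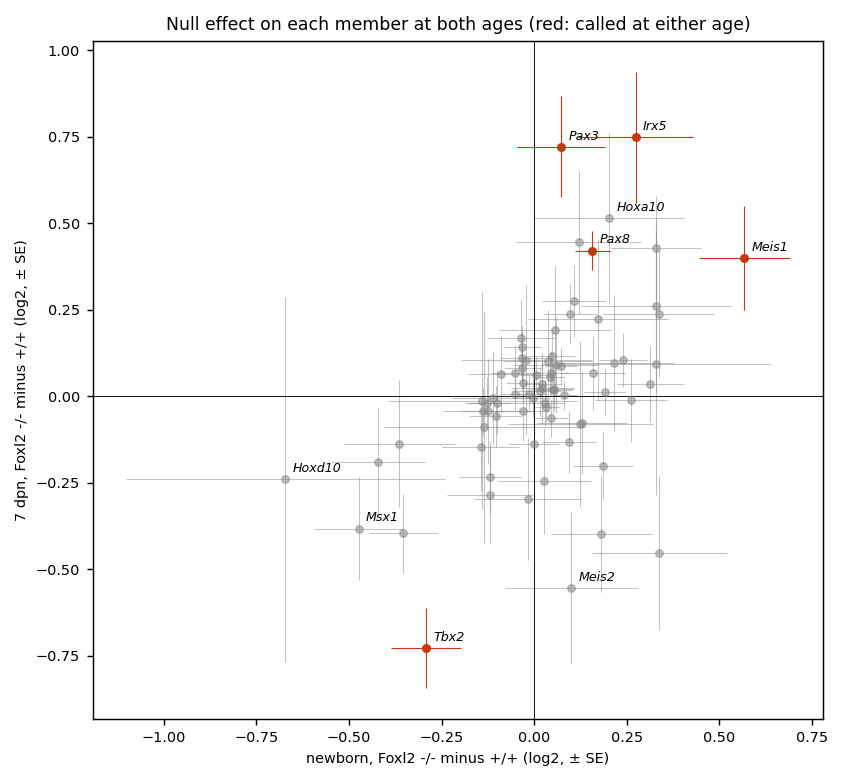
Null minus wild-type log2 difference of each of the 75 members well above background on at least 1 array, in newborns (horizontal) and at 7 dpn (vertical), with standard errors, and the 5 members called at either age in red. Most members lie near 0 at both ages, and *Tbx2* is the red point at -0.29 and -0.73.

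The last question was how members changed from birth to 7 dpn. All newborn arrays were processed by the scanner software on 1 day and all 7 dpn arrays on the next, and 7 dpn arrays carried pools, so that age and these differences cannot be told apart. In the wild type 4 members rose and 2 fell (7.69%, beside 8.72% of probes, 5.01% higher and 3.71% lower). That count of 6 ran from 1 (without 7 dpn wild-type replicate 2) to 13 (without newborn wild-type replicate 1), and the series values gave 12. In the heterozygote 3 rose (3.85%, beside 8.3% of probes, 3.98% higher and 4.32% lower), and in the null 3 rose (3.85%, beside 3.26%, 1.68% higher and 1.58% lower), the latter falling to 0 without 7 dpn null replicate 2. With the ovary channel alone, the wild-type calls of *Tbx1*, *Tbx2*, *Hoxa7*, *Irx5* and *Lhx8* were lost (adjusted p = 0.285, 0.0788, 0.0683, 0.0925 and 0.636), as were those of *Hoxc6* in heterozygotes (0.0675) and nulls (0.15) and of *Tbx1* and *Pax8* in nulls (0.416 and 0.643).

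*Hoxc6*, a Hox gene of thoracic level, rose in each genotype. In wild-type ovaries it read -0.09, -0.25 and -0.29 at birth and 0.39 and 0.44 at 7 dpn, in heterozygotes -0.10, -0.24 and -0.12 against 0.37 and 0.52, and in nulls 0.05, 0.05 and -0.01 against 0.49 and 0.54. The ages did not overlap in any genotype. The rises were 0.63 ± 0.07 (adjusted p = 0.00153), 0.60 ± 0.07 (0.000958) and 0.49 ± 0.07 (0.00627). The last was lost without 7 dpn null replicate 2 (0.47, adjusted p = 0.0968). Of 6 stromal markers, 5 were called higher with age in the wild type, 3 in the heterozygote and 0 in the null (limma, adjusted p under 0.05), where 5 lay above 0 with a median over the list of 0.06. Of 11 granulosa markers 5, 4 and 0 were called higher in the same order (10, 8 and 8 lay above 0), and of 5 theca and steroid markers 2, 2 and 0 (5, 5 and 3 above 0). Their part in the members' rises was not tested.

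*Tbx1*, a T-box gene of the pharyngeal arches, was 0.66 ± 0.17 higher at 7 dpn in the wild type (adjusted p = 0.0361) and 0.79 ± 0.17 in the null (adjusted p = 0.0307). Wild-type arrays read 0.78, 0.82 and 0.47 at birth and 1.21 and 1.48 at 7 dpn, and null arrays 0.49, 1.12 and 0.63 against 1.49 and 1.58. The first call was lost in 10 of the 15 fits that left out 1 array (adjusted p from 0.0504 to 0.216), namely without any 1 null, heterozygous or wild-type array of 7 dpn, newborn heterozygous replicate 1 or 3, or newborn wild-type replicate 2 or 3. The second was lost without either 7 dpn null array or newborn null replicate 1 or 3 (adjusted p from 0.0689 to 0.252). With the replicate block neither passed (0.0705 and 0.0681), nor did the first with the series values (0.39, 0.0573). The heterozygote's difference of 0.53 ± 0.17 did not pass (adjusted p = 0.0844), but did with normexp correction (0.43, 0.0358) and without newborn null replicate 2 (0.0263).

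*Hoxd4* rose in the heterozygote, from 0.03, 0.10 and 0.20 to 1.56 and 1.08 (1.21 ± 0.22, adjusted p = 0.00699). Without 7 dpn heterozygous replicate 1, its highest array, the difference was 0.97 (adjusted p = 0.0782). The wild type read 0.48, -0.09 and 0.52 at birth and 1.17 and 0.89 later, a difference of 0.73 ± 0.22 (adjusted p = 0.0653). It passed with normexp correction (0.52, adjusted p = 0.0145), median centring (0.0482), the ovary channel alone (1.25, 0.0131) and the replicate block (0.0326), and without newborn null replicate 3 (0.0484) or newborn wild-type replicate 1 (0.0412).

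*Hoxa7* rose in the wild type, from -0.26, -0.41 and -0.53 to 0.44 and 0.47 (0.86 ± 0.20, adjusted p = 0.0253). The newborn heterozygotes, at 0.30, 0.28 and 0.44, were already above all wild-type newborn arrays, and the newborn nulls read -0.59, 0.14 and 0.26. From birth to 7 dpn the group mean went from 0.34 to 0.51 in heterozygotes and from -0.06 to 0.00 in nulls. The call was lost without either 7 dpn wild-type array or newborn wild-type replicate 2 or 3 (adjusted p from 0.0748 to 0.115).

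*Tbx2*, lower in the 7 dpn null, was 0.42 ± 0.10 higher at 7 dpn than at birth in the wild type (adjusted p = 0.0326), and -0.02 ± 0.10 in the null. Without 7 dpn wild-type replicate 2 (0.29, adjusted p = 0.229), newborn wild-type replicate 2 (0.36, 0.111) or replicate 3 (0.43, 0.0776) it did not pass, nor did it with the series values (0.29, 0.054). *Pax8* rose with age in the null (0.26 ± 0.05, adjusted p = 0.0242), a call lost without any 1 null array of either age (adjusted p from 0.058 to 0.265) and with the series values (0.23, 0.108), and its second probe gave 0.23 ± 0.14 (adjusted p = 0.502).

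Members that fell with age were *Irx5* and *Lhx8*, both in the wild type. *Irx5* read 1.85, 1.67 and 2.35 at birth and 1.10 and 1.05 at 7 dpn (-0.88 ± 0.17, adjusted p = 0.012), and lost its call without either 7 dpn wild-type array (adjusted p = 0.0548 and 0.0713). The 7 dpn null value of *Irx5* was nearer the newborn values than the 7 dpn wild-type value was. *Lhx8*, an oocyte factor, had a probe near the reference level on all 15 arrays (from -0.19 to 0.14, SD 0.09). Whether that probe follows *Lhx8* RNA was not tested. Its value fell by 0.21 on the log2 scale (-0.21 ± 0.06, adjusted p = 0.0396), from -0.02, 0.00 and 0.11 to -0.19 and -0.17. That call was lost in 11 of the 15 fits that left out 1 array (adjusted p from 0.0537 to 0.166), all except those without newborn heterozygous replicate 2 or 3, newborn null replicate 1 or newborn wild-type replicate 1, and also with median centring (0.0596) and the replicate block (0.0604). *Lhx9* was -0.61 ± 0.19 in the wild type, without passing (adjusted p = 0.0711). It passed with normexp correction (-0.59, 0.0358), with the series values (-0.68, 0.032) and without newborn null replicate 1 (0.0188) or 3 (0.0284).

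**Figure D5:**
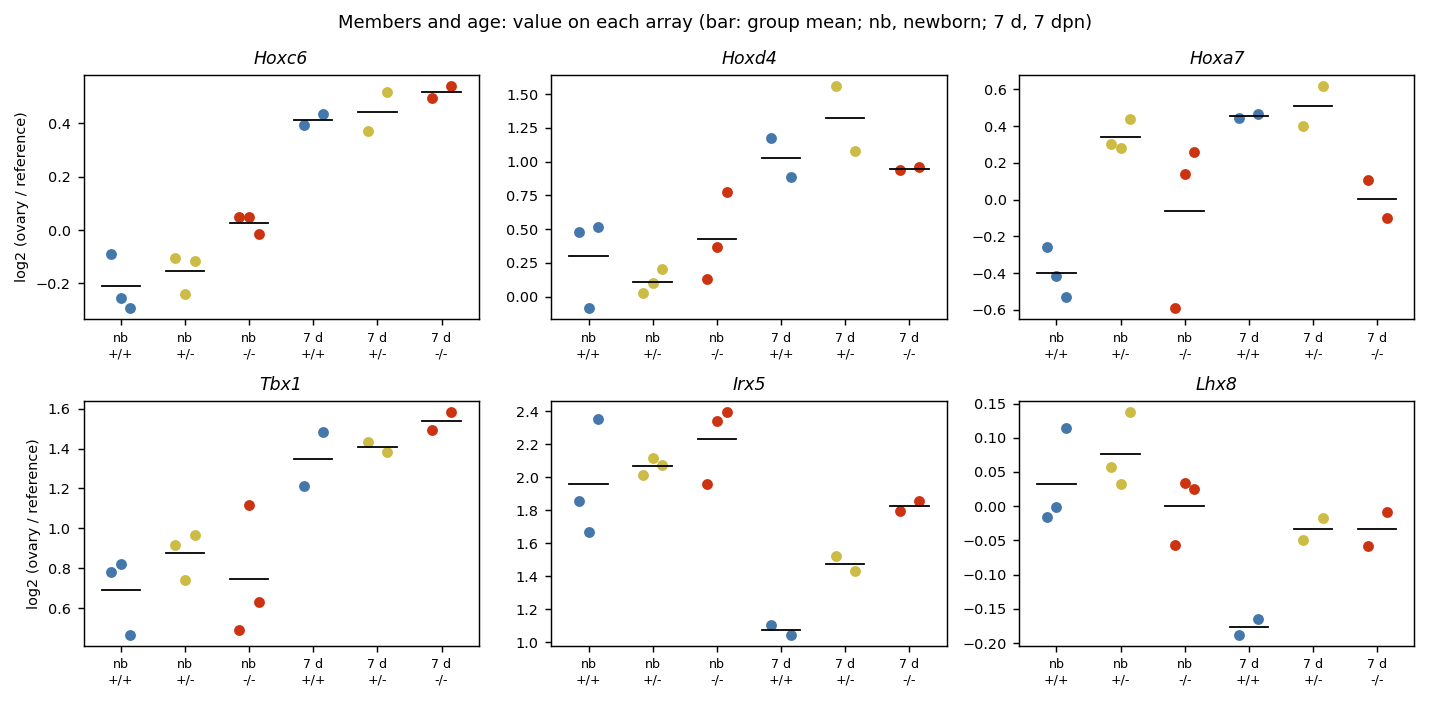
Log2 ratio of ovary over reference on each array (points) with group means (bars) for 6 members that differed between birth and 7 dpn in at least 1 genotype (blue, wild type; yellow, heterozygote; red, null); vertical axes differ between panels. For *Hoxc6* every 7 dpn array, at 0.37 or more, lies above every newborn array, at 0.05 or less.

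Partners of these factors and other homeobox genes were read from fixed lists. In the 7 dpn null, 1 of 4 TALE partners was lower (*Tgif1*, -0.56, adjusted p = 0.0498), as were 1 of 6 LIM domain partners (*Lmo4*, -0.59, adjusted p = 0.0279) and 1 of 3 Groucho corepressors (*Tle1*, -0.38, adjusted p = 0.021). None of the 6 Eya and Dach genes, partners of sine oculis-related and Pax proteins, or the 2 other T-box genes passed. Without 1 array, these calls were lost in 12, 3 and 4 of the 15 fits. The *Tle1* difference was also smaller and not called with the series values (-0.11, adjusted p = 0.358) and median centring (-0.24, 0.115), and those of *Tgif1* and *Lmo4* were not called with a local mean (0.0573 and 0.0681). Of 60 other homeobox genes, 3 were lower (*Gbx2*, *Isl2* and *Zeb2*) and 2 higher (*Prox1* and *Rhox6*), where 5.52% of all probes were called in this comparison (2.73% higher and 2.8% lower). *Zeb2*, a repressor of epithelial genes, had the largest of these differences (-0.997, adjusted p = 0.0116). Of the 15 fits without 1 array, the calls of *Prox1*, *Isl2*, *Zeb2* and *Rhox6* were lost in 12, 4, 4 and 2, and that of *Gbx2* in none. With the ovary channel alone, none of these 8 calls of partner and other homeobox genes was kept (adjusted p from 0.0672 to 0.842). *Isl2*, a LIM homeobox gene, was lower in the null at both ages (-0.64, adjusted p = 0.0267, and -0.78 in newborns, adjusted p = 0.00864). Neither call held with the ovary channel alone (-0.26, adjusted p = 0.842, and -0.70, 0.514), and the 7 dpn call was lost with median centring (0.124) and the series values (-0.43, 0.146). Between null and heterozygote at 7 dpn, 2 of the 60 were called lower (*Gbx2* and *Isl2*), where 2.19% of all probes were called in either direction. Those calls were lost in 3 and 7 of the 15 fits without 1 array. *Tgif1* and *Lmo4* were called higher with age in the wild type, calls lost in 4 and 3 of the 15 fits without 1 array. From birth to 7 dpn in the wild type, 2 of the 60 were called higher (*Gbx2* and *Zeb2*) and 3 lower (*Prox1*, *Rhox5* and *Rhox6*), beside 5.01% and 3.71% of all probes. In the heterozygote 3 were higher (*Gbx2*, *Gsc* and *Isl2*) and 4 lower (*Prox1*, *Rhox5*, *Rhox6* and *Rhox9*), beside 3.98% and 4.32%. In the null 0 were higher and 1 lower (*Rhox5*), beside 1.68% and 1.58%. *Rhox5*, a homeobox gene of the X chromosome, was called lower in each genotype (-0.58, -1.11 and -0.70 in wild type, heterozygote and null, adjusted p = 0.0107, 0.00045 and 0.00932). With the ovary channel alone its calls in the wild type (-0.455, adjusted p = 0.138) and null (-0.69, 0.0711) were lost, as they were without 7 dpn wild-type replicate 1 (0.0814) and without 7 dpn null replicate 2 (0.133).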

How the data were processed

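Expression was measured in 15 ovary samples on 2-colour Agilent mouse developmental arrays. The authors deposited scanner output from Agilent Feature Extraction version 7.5.1, whose processed intensity per spot and channel had been background-subtracted and dye-balanced by that software. The log10 ratios of reference over ovary in the same deposited output were used only to check the direction. A series table that the authors deposited holds a value per probe whose scale is not given and which followed the ovary intensity. It was used as an alternative after taking log2. Groups came from the sample labels. The labels' age field gives birth for the 7 dpn samples, while titles and methods give 7 dpn, which was used. The methods count 4 samples at 7 dpn and the labels 6, and all 6 were used. The labelling protocol names a linear amplification kit, while the methods describe the 7 dpn RNA as not amplified.

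Control spots (2396 per array) and outlier spots were left out and spots of a probe averaged. Log2 ratios (ovary over reference) were then normalized by loess (span 0.01, local linear) against the mean of all arrays. Group means were fitted with limma 3.58.1 in R 4.3.3 over all 15 arrays, and a probe was called where its p-value, adjusted by Benjamini-Hochberg over 40990 probes, was under 0.05. Of comparisons between genotypes and between ages, 10 were made. Precision is limited by having only 2 or 3 arrays in a group.

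Named genes were, in each comparison, up to 10 called members with the largest rise and fall (where none was called, the 3 of lowest p), 17 urogenital genes whatever they did, and called genes of the partner and other homeobox lists. Results for some genes under this rule are not reported here, though counts over the members include them. Members just over the threshold (adjusted p under 0.1) were added after their values were seen. Members and lists were chosen with earlier results of these data known. The alternatives tried were another background correction, median centring, a wider span, a local mean, the ovary channel alone, the series values, a filter on dim probes, only the arrays of 1 age, a block for replicate number, a threshold of 0.01, any probe of a gene, and each array left out in turn.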

Additional observations from a re-analysis of the deposited data

How the results depend on the processing

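Several of the settings could not change a direction, so the counts below do not measure how stable direction was. The threshold of 0.01, the filter on dim probes and the fit of 1 age left each difference as it was. So did leaving out an array that a comparison does not use. The stricter threshold could only lose calls, and the named differences had been chosen from these data by p-value. Of the named differences under the alternatives other than leaving out an array, 494 kept both direction and side of the threshold, 112 lost their call, 14 gained one and 4 reversed. All 4 reversals came with the ovary channel alone (*Hoxd1* with age in heterozygotes, -0.27, in the null effect by age, 0.24, and in newborn null against heterozygote, -0.075, and *Lhx8* in 7 dpn heterozygote against wild type, -0.044). With 1 array left out, 796 stayed the same, 172 lost their call, 22 gained one and none reversed. The number of members called moved by more than 1.5 times in the following cases, and smaller moves are not listed. With the ovary channel alone it was 2 for age in the wild type, 1 for age in heterozygotes, and 0 for age in nulls, 7 dpn null against heterozygote and newborn null against wild type. At a threshold of 0.01 it was 2 for 7 dpn null against wild type, 1 each for 7 dpn null against heterozygote, age in the wild type and age in nulls, and 0 for newborn null against wild type. A local mean, a span of 0.3 and a fit of 1 age each gave 1 for 7 dpn null against heterozygote, and normexp correction and a fit of 1 age each gave 1 for newborn null against heterozygote. Normexp correction gave 5 for age in heterozygotes, the series values 12 for age in the wild type, and median centring 2 for newborn null against wild type. The cause was not tested. With 1 array left out, the number called ranged from 1 to 6 for 7 dpn null against wild type, 0 to 1 for heterozygote against wild type, 0 to 3 for null against heterozygote, 0 to 2, 0 to 2 and 0 to 1 for the same newborn comparisons, 1 to 13, 2 to 5 and 0 to 3 for age in wild type, heterozygotes and nulls, and 0 to 1 for the null effect by age. Same-numbered arrays did not deviate together (correlations from -0.17 to 0.14, 3 of 33 over 0.1). With the replicate number as a block, newborn null against wild type gave 2 members. The series values shifted the median of all probes by 0.11 in 7 dpn null against wild type and by -0.16 for age in the wild type. The planned block on scan date was not run, because the files give only the day of processing by the scanner software, which coincides with age.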
